A study of Mus musculus with 15 samples.

Results

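Matrix metalloproteinases (MMPs) and their tissue inhibitors (TIMPs) were followed across sorted brain myeloid cells of mice fed a western diet (WD) or a control chow diet (CD). The members were 10 genes picked by symbol, namely *Mmp8*, *Mmp9*, *Mmp12*, *Mmp13*, *Mmp14*, *Mmp19*, *Mmp25*, *Timp1*, *Timp2* and *Timp3*, out of 38924 genes with a value in every library. The filter on low counts, at least 1 cpm (counts scaled by library size) in at least 2 of the 15 libraries, kept 14967 genes and 9 of the 10 members, all except *Timp1*. The libraries came from wild type C57BL/6J male mice aged 12 months. The WD-fed animals had received the WD from 2 months of age, and the CD-fed animals were kept on chow. Brains were perfused, dissociated and sorted by fluorescent activated cell sorting (FACS) into CD11b+CD45hi and CD11b+CD45lo cells, that is, cells with the myeloid surface protein CD11b, without the T cell protein CD3e, and with high or low levels of the leukocyte protein CD45. There were 4 libraries of CD45hi and 4 of CD45lo cells from CD-fed mice, and 3 of CD45hi and 4 of CD45lo cells from WD-fed mice, named here by diet, cell type and replicate. The gate alone defines these groups, so each can hold several cell types, and in such bulk libraries a gene carried by fewer cells cannot be told apart from less RNA of it per cell.

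MMPs are zinc-dependent proteases that cut collagens, elastin, laminins and other components of the extracellular matrix and of basement membranes, including those around brain vessels. Most are secreted as inactive proenzymes, some are anchored in the cell membrane, and TIMPs block the active enzymes by occupying the catalytic site. Neutrophils store the collagenase MMP8 and the gelatinase MMP9 in granules, macrophages make the elastase MMP12, and microglia are the resident macrophages of the brain.

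*Mmp13*, *Mmp12* and *Mmp8* lie in this order on the forward strand of chromosome 9, in a cluster of 10 *Mmp* genes that spans 427.1 kb (mm10, GENCODE M21). Of the 10 genes, 6 never had over 3 counts in any library, among them *Mmp3*, *Mmp10* and *Mmp7*. The sequences shown are the 250 bases before the RefSeq starts of the 3 members of the cluster (build GRCm38.p6), because these genes share a neighbourhood but differ in their counts. They were searched on both strands for the AP-1 word TGACTCA, which is TGAGTCA on the other strand, and for the PU.1 word AGGAAGT, which is ACTTCCT on the other strand. AP-1 is an inducible factor known to act on *Mmp* promoters and PU.1 is a factor of the myeloid lineage. The matches are in capitals, and *Mmp12* has a pair of listed starts. The windows, all read on the forward strand, are chr9:7272264-7272513 for *Mmp13*, chr9:7344147-7344396 and chr9:7347124-7347373 for *Mmp12*, and chr9:7558179-7558428 for *Mmp8*.
Mmp13: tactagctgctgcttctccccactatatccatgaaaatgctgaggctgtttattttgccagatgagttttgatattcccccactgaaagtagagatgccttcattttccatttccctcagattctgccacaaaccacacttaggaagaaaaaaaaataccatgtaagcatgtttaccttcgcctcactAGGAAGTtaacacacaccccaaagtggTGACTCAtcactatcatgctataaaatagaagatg
Mmp12, upstream start: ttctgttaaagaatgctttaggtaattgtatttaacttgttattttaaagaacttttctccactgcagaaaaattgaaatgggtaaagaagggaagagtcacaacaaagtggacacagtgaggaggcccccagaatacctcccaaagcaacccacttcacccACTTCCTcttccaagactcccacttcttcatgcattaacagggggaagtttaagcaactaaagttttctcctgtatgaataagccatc
Mmp12, downstream start: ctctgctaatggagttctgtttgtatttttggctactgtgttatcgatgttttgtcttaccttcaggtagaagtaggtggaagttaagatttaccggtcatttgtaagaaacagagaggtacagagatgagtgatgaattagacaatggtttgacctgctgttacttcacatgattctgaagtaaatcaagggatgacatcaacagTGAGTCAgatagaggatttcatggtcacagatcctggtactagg
Mmp8: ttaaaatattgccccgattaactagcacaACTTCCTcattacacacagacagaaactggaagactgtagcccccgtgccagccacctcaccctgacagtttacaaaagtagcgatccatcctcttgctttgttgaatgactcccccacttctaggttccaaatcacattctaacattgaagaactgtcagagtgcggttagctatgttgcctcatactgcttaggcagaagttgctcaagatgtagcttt
The *Mmp13* window held an AP-1 word 35 to 29 bases and a PU.1 word 62 to 56 bases before the start. At *Mmp12* the AP-1 word lay 44 to 38 bases before the downstream start, and a PU.1 word on the reverse strand 88 to 82 bases before the upstream start. The *Mmp8* window held a PU.1 word on the reverse strand, 221 to 215 bases before the start. Over the 8 members in the promoter table, 2 had an AP-1 word and 4 a PU.1 word, the latter including *Timp1*. Neither word was in the windows of *Mmp14*, *Mmp25*, *Timp2* or *Timp3*. Of all 32851 promoter windows of this length, 4.46% held the AP-1 word and 7.69% the PU.1 word. A match describes these letters alone and was not tested as a binding site.

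**Figure D1:**
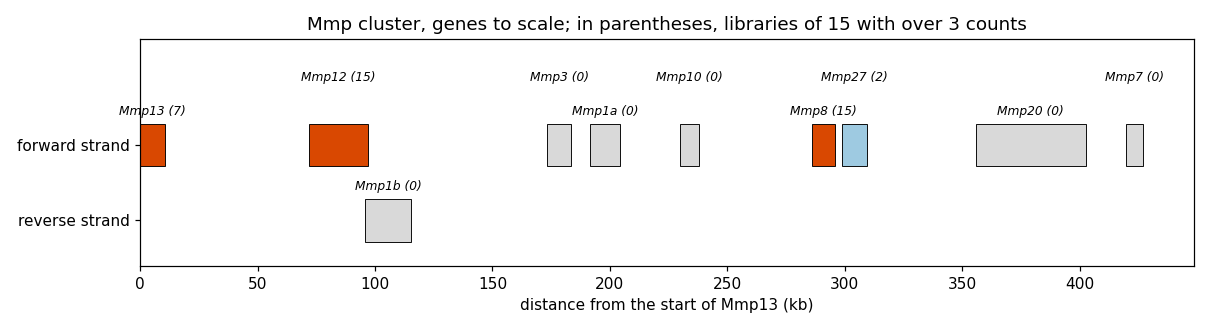
The cluster of *Mmp* genes on chromosome 9 drawn to scale, by distance in kb from the start of *Mmp13* and by strand, with members in orange, other genes with over 3 counts in any library in blue and genes never over 3 counts in grey. *Mmp12* and *Mmp8* had over 3 counts in all 15 libraries and *Mmp13* in 7, while 6 of the other genes had none.

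Total expected counts per library were 11951412 to 17912272, so 3 counts, taken as the smallest measurable value, corresponded to 0.156 to 0.282 normalised cpm, a limit that covers counting error only. All 8 microglial markers (*P2ry12*, *Tmem119* and others) were lower in every CD45hi than in every CD45lo library on either diet. So were 13.4% of all tested genes in WD-fed and 8.22% in CD-fed mice. The markers summed to 6211 to 7516 cpm in CD45hi and 13218 to 16988 cpm in CD45lo libraries, so CD45hi libraries also held much RNA of these markers. In the CD45hi group, CD replicate 4 and WD replicate 1 stood apart from the rest on the second principal component, which held 13.2% of the variance. Results that rest on them are given without them too. The study describes the deposited counts as belonging to single animals, but which CD45hi and CD45lo libraries share an animal is not given in the sources used here. All 15 libraries were fitted together with edgeR, CD45hi and CD45lo cells were compared against a threshold of 1.5-fold, and genes with a false discovery rate (FDR) under 0.05 were called.

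The comparison of CD45hi with CD45lo cells asks which of these genes mark the cells with high CD45. Higher in CD45hi cells on each diet were 3 members, the collagenases *Mmp8* and *Mmp13* and the gelatinase *Mmp9*. In WD-fed mice these were 3 of the 9 tested members, where 5.18% of all tested genes were called, 4.01% as higher. In CD-fed mice they were again 3 of 9, beside 3.98% of all genes called and 3.39% as higher. *Mmp13* reached 1 cpm in CD45hi libraries alone, with at most 0.571 cpm in CD45lo cells, so it passed the filter through the higher group. The members were also chosen with earlier results of these data known, so the counts in this paragraph only describe the list. No member was called lower, as 1.17% of all genes were on the WD and 0.588% on the CD. The median log2 fold change of the 7 MMP members was 2.44 in WD-fed and 2.84 in CD-fed mice, and that of all tested genes 0 and 0.04. The 6 other *Mmp* genes tested, which are not members, had medians of −1.13 in WD-fed and −0.48 in CD-fed mice. Of these, 0 were called higher on either diet, and 0 were called lower in WD-fed and 1 in CD-fed mice. Both lists were chosen with earlier results known, so this contrast describes the lists and not MMPs as a family. *Timp2* and *Timp3* were called on neither diet. Libraries of the 2 cell types did not overlap, with CD45hi higher, for 4 of the 9 members on each diet, against 10% of all genes in WD-fed and 8.26% in CD-fed mice. With CD45hi lower, 0 members did not overlap, against 13.4% and 8.22% of all genes.

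**Figure D2:**
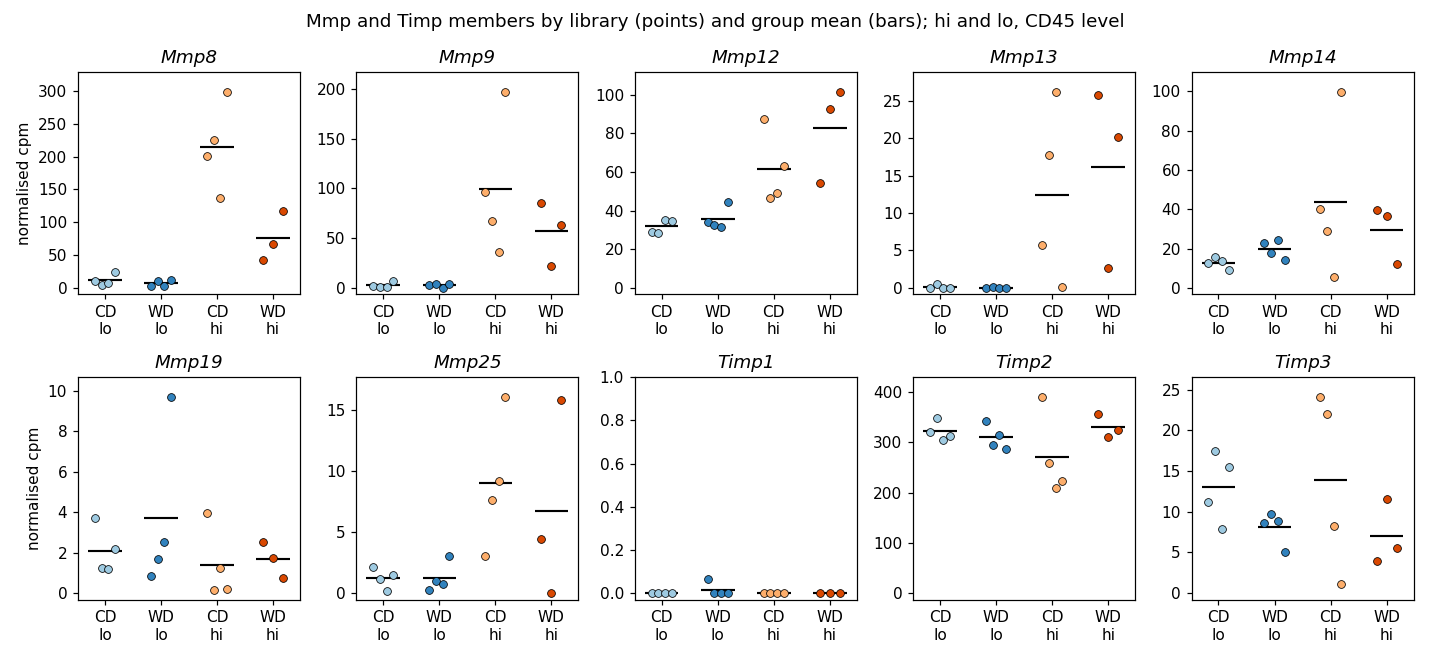
Normalised cpm of the 10 members on linear axes, 1 panel a gene, with a point for each library and a bar for the group mean (CD CD45lo, WD CD45lo, CD CD45hi and WD CD45hi, from left to right). *Mmp8* and *Mmp9* were higher in every CD45hi than in every CD45lo library of the same diet, *Timp2* was at 209 to 391 cpm in all of them, and *Timp1* had 1 count in a single library.

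*Mmp8* (ENSMUSG00000005800, chr9:7558456-7568485), the neutrophil collagenase, was at 200.3, 226, 136 and 299 cpm in CD CD45hi replicates 1 to 4 and at 42.8, 66.8 and 117 cpm in WD CD45hi replicates 1 to 3. The CD45lo libraries held 10.6, 4.98, 7.38 and 24.5 cpm in CD-fed and 3.15, 9.94, 3.24 and 12.3 cpm in WD-fed mice. Every CD45hi library was above every CD45lo library, and even the lowest CD45lo libraries were well over the smallest measurable value. The difference between cell types was 18.1-fold in CD-fed mice, a log2 fold change of 4.18 with a standard error (SE) of 0.57 (FDR = 0.000237). On the WD it was 10.6-fold, or 3.40 on the log2 scale with an SE of 0.57 (FDR = 0.00196). Without both libraries that stood apart, the log2 fold changes were 3.98 and 3.68 (FDR = 0.00086 and 0.00217).

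*Mmp9* (ENSMUSG00000017737, chr2:164940780-164955850), gelatinase B, was at 96.3, 67.6, 36.5 and 197 cpm in the CD CD45hi libraries and at 84.9, 22.2 and 63.0 cpm in the WD CD45hi libraries. In CD45lo cells it was at 2.29, 1.35, 0.43 and 7.26 cpm on the CD and at 2.95, 3.78, 0.275 and 3.56 cpm on the WD. CD replicate 4 was the highest of the CD libraries in both cell types, and the cell types did not overlap. The CD45hi level was 35.0-fold higher on the CD (5.13 on the log2 scale, SE 0.88, FDR = 0.00181) and 21.5-fold higher on the WD (4.43, SE 0.88, FDR = 0.00607). Its spread was wide, with a coefficient of variation of 70.1% over the CD CD45hi libraries against 31.3% for *Mmp8*. Both genes stayed called when any library was left out. *Mmp9* ranged from 4.55 to 6.18 in CD-fed and from 4.02 to 4.81 in WD-fed mice on the log2 scale in those fits.

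*Mmp13* (ENSMUSG00000050578, chr9:7272514-7283331), collagenase 3, was nearly confined to CD45hi libraries. Its counts were 87, 214, 298 and 1 in CD CD45hi and 274, 39 and 262 in WD CD45hi libraries. In CD45lo cells there were 0 counts in 6 of 8 libraries, 11 in CD replicate 2 and 1 in WD replicate 2. On the normalised scale the CD45hi libraries held 5.70, 17.7, 26.2 and 0.0644 cpm in CD-fed and 25.8, 2.62 and 20.1 cpm in WD-fed mice. Thus CD CD45hi replicate 4, the library with the most *Mmp8*, *Mmp9*, *Mmp14* and *Mmp25* of its group, had almost no *Mmp13*, and the CD cell types overlapped. Since no WD CD45lo library exceeded 3 counts, the WD difference is a lower bound. By group mean, *Mmp13* was at least 79.7-fold higher in CD45hi cells when 3 counts per library are used for CD45lo cells. The call itself came from the fit against 1.5-fold (FDR = 0.00804), which did not test this bound. In CD-fed mice the log2 fold change was 6.32 with an SE of 1.60 (FDR = 0.0325). That CD call was lost in 6 of 15 fits without 1 library, namely CD CD45hi replicates 2 or 3, CD CD45lo replicates 1, 3 or 4 or WD CD45lo replicate 2, where FDR was 0.0562 to 0.105. It was also lost with CD libraries alone in the fit (FDR = 0.0873).

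*Mmp12* (ENSMUSG00000049723, chr9:7344381-7369499), the macrophage elastase, differed less. It was at 87.3, 46.5, 49.1 and 63.1 cpm in CD CD45hi and 54.5, 92.9 and 102 cpm in WD CD45hi libraries. The CD45lo libraries were close together, at 28.9, 28.4, 35.1 and 34.8 cpm on the CD and 34.2, 32.6, 31.5 and 44.7 cpm on the WD. All CD45hi libraries lay above all CD45lo libraries. The log2 fold change was 0.95 (SE 0.27, FDR = 0.268) in CD-fed and 1.22 (SE 0.29, FDR = 0.0864) in WD-fed mice, so neither passed the test against 1.5-fold. A test against no change followed by a limit of 1.5-fold called both (FDR = 0.0395 and 0.012), as did DESeq2 (FDR = 0.00286 and 0.000197). Without WD CD45hi replicate 1, *Mmp12* passed in WD-fed mice at a log2 fold change of 1.44 (FDR = 0.0277). *Mmp12* shares 157 exon bases on the opposite strand with *Mmp1b*, which had 0 counts in every library.

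*Mmp25* (ENSMUSG00000023903, chr17:23628311-23645277, reverse strand), a membrane-anchored enzyme known from leukocytes, was a low member at 3.08, 7.62, 9.15 and 16.1 cpm in CD CD45hi and 4.42, 0 and 15.8 cpm in WD CD45hi libraries. The CD45lo libraries held 0.184 to 2.18 cpm in CD-fed and 0.262 to 3.03 cpm in WD-fed mice. The CD cell types did not overlap, while WD CD45hi replicate 2 at 0 counts, where 3 counts would be 0.201 cpm, was below every WD CD45lo library. Log2 fold changes of 2.84 (SE 1.23, FDR = 0.309) and 2.44 (SE 1.26, FDR = 0.362) in CD- and WD-fed mice did not pass. The edgeR 4 form of the test called the CD difference (FDR = 0.0376).

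*Mmp14* (ENSMUSG00000000957, chr14:54431612-54445364), a membrane-anchored enzyme that activates other MMPs, was at 40.0, 29.2, 5.63 and 99.8 cpm in CD CD45hi and 39.7, 36.4 and 12.1 cpm in WD CD45hi libraries. It was at 12.5, 15.5, 13.8 and 9.19 cpm in CD CD45lo and 23.0, 17.8, 24.3 and 14.4 cpm in WD CD45lo libraries. The CD45hi libraries spread 17.7-fold from the lowest to the highest in CD-fed mice and the CD45lo libraries 1.68-fold. With 1 CD45hi library of each diet below every CD45lo library of that diet, the cell types overlapped, and the log2 fold changes were 1.78 (SE 0.60, FDR = 0.194) in CD-fed and 0.57 (SE 0.63, FDR = 0.819) in WD-fed mice. The CD value depended on single libraries. It was 2.15 (FDR = 0.0289) without CD CD45hi replicate 3, and 0.97 (FDR = 0.622) without replicate 4, and DESeq2 called it (FDR = 0.0167).

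*Mmp19* (ENSMUSG00000025355, chr10:128790910-128800824), a secreted enzyme of broad tissue range, was low in every group, at 0.166 to 3.93 cpm in CD45hi and 0.853 to 9.70 cpm in CD45lo libraries. The highest value, 9.70 cpm, was in WD CD45lo replicate 4, and groups overlapped on both diets. The log2 fold changes were −0.58 (SE 1.05, FDR = 0.994) in CD-fed and −1.13 (SE 1.17, FDR = 0.765) in WD-fed mice. *Mmp19* shares 789 exon bases with *Tmem198b* on the opposite strand, which had 4.51 to 326 counts, and its own counts were fractional in all 15 libraries. The use of strand in counting is not given in the sources used here, so reads of the 2 genes cannot be told apart.

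Of the inhibitors, *Timp2* (ENSMUSG00000017466, chr11:118301069-118355740, reverse strand) was high in all groups and even in all but CD CD45hi. It was at 391, 259, 209 and 223 cpm in CD CD45hi, 321, 349, 305 and 312 cpm in CD CD45lo, 356, 311 and 324 cpm in WD CD45hi, and 342, 295, 315 and 287 cpm in WD CD45lo libraries. Apart from the CD CD45hi group, with the lowest and the highest library and a coefficient of variation of 30.7%, the coefficient was 5.98 to 7.94%. CD45hi and CD45lo cells differed by −0.25 on the log2 scale (SE 0.17) in CD-fed and by 0.09 (SE 0.18) in WD-fed mice, with an FDR of 1 on both diets.

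*Timp3* (ENSMUSG00000020044, chr10:86300372-86349506), which binds to the matrix and also inhibits ADAM proteases, was at 24.1, 22.0, 8.18 and 1.16 cpm in CD CD45hi and 3.95, 11.5 and 5.52 cpm in WD CD45hi libraries. It was at 7.93 to 17.5 cpm in CD CD45lo and 5.08 to 9.72 cpm in WD CD45lo libraries. The CD CD45hi group held both the highest and the lowest library. No difference between cell types passed, with log2 values of 0.09 (SE 0.68) in CD-fed and −0.20 (SE 0.74) in WD-fed mice. *Timp3* lies within *Syn3*, on the opposite strand, and shares 1733 exon bases with it. *Syn3*, a neuronal synapsin gene, had 0 to 48 counts.

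*Timp1* (ENSMUSG00000001131, chrX:20870166-20874735), the inhibitor best known to be induced in inflammation, had 0 counts in 14 libraries and 1 in WD CD45lo replicate 1. A level under 3 counts, or 0.156 to 0.282 cpm, was not measurable at this depth. It lies within *Syn1* on the opposite strand, which had 0 to 138 counts and shares no exon bases with it.

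**Figure D3:**
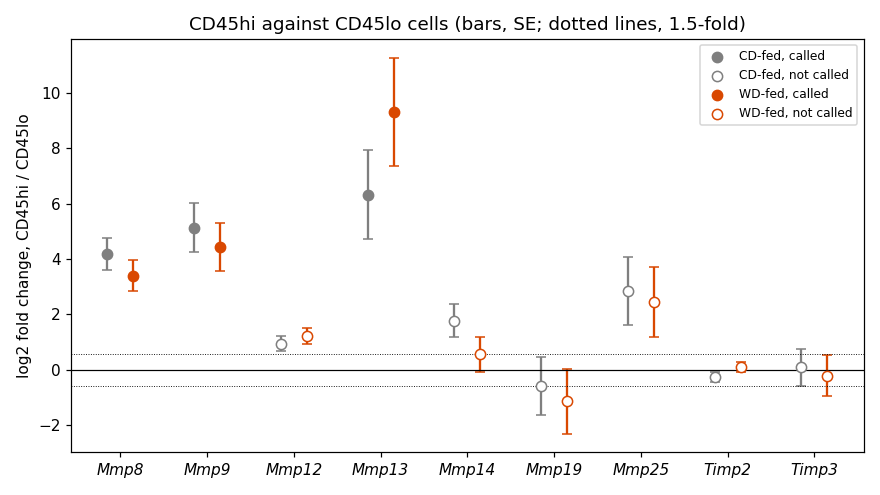
Log2 fold change of CD45hi over CD45lo cells for the 9 tested members in CD-fed (grey) and WD-fed (orange) mice, with bars for the SE and filled points for called members. *Mmp8*, *Mmp9* and *Mmp13* were called on both diets. The fitted WD value of *Mmp13*, 9.31, is set against CD45lo libraries with at most 1 count and is no estimate of size.

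Levels of different genes were compared per length, in TPM (transcripts scaled by gene length and library total). *Timp2* led every group by mean TPM, at 141 ± 52.9 (SD, n = 4) in CD CD45hi, 243 ± 11.6 (n = 4) in CD CD45lo, 228 ± 53.4 (n = 3) in WD CD45hi and 220.5 ± 27.9 (n = 4) in WD CD45lo libraries. In CD CD45hi libraries it overlapped with *Mmp8* (129 ± 35.6), which overlapped with *Mmp9* (86.7 ± 86.9), and each further member in the order *Mmp12*, *Mmp14*, *Mmp13*, *Timp3*, *Mmp25* and *Mmp19* also overlapped with the next. In WD CD45hi libraries *Timp2* stood clear of *Mmp9* (50.9 ± 31.3), *Mmp12* (50.4 ± 33.9) and *Mmp8* (43.1 ± 22.5), which did not differ beyond their spread. After them came *Mmp14* (15.6 ± 7.87), below every *Mmp8* value.

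In CD45lo libraries *Timp2* also stood clear, and *Mmp12* led the 7 MMP members. It was at 14.6 ± 2.27 TPM in CD CD45lo, overlapping with *Mmp8* (9.96 ± 7.62), and at 16.5 ± 2.85 TPM in WD CD45lo, overlapping with *Mmp14* (15.6 ± 3.95). *Mmp2*, which is not a member and is left out of the sums, was at 14.8 to 21.7 TPM in CD CD45lo libraries. In WD CD45lo libraries *Mmp2* was at 16.05 to 18.4 TPM. The summed TPM of the 7 MMPs was 140 to 468 in CD CD45hi and 160 to 194 in WD CD45hi libraries. In CD45lo libraries it was 30.9 to 56.8 on the CD and 37.7 to 53.7 on the WD. That of the 3 TIMPs was 94.0 to 199, 181 to 285, 234 to 256 and 184 to 247 in the same order of groups. The MMPs thus made up 63.9% ± 12.4 of the members' summed TPM in CD CD45hi, 43.2% ± 6.24 in WD CD45hi, 13.8% ± 3.23 in CD CD45lo and 16.7% ± 4.11 in WD CD45lo libraries (SD). Every CD CD45hi library (56.2 to 82.4%) was above every WD CD45hi library (36.0 to 47.2%). Without both libraries that stood apart, which were the extremes, the ranges were 56.2 to 59.8% and 46.4 to 47.2%. This share was not tested between diets, and no member was called between them. The length assigned to *Timp2* was 2256 to 3338 bases in CD CD45hi and 1808 to 2386 bases in WD CD45hi libraries. At the same count a shorter length gives a higher TPM, and the part of length in this difference was not tested. *Timp2* was 96.2 to 99.7% of the summed TIMP level in all 15 libraries. The length that RSEM assigned to a gene moved with the isoforms it estimated, from 1190 to 3175 bases for *Mmp9*, 1537 to 4461 for *Mmp12* and 1808 to 3338 for *Timp2*, and their TPM moved with it.

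**Figure D4:**
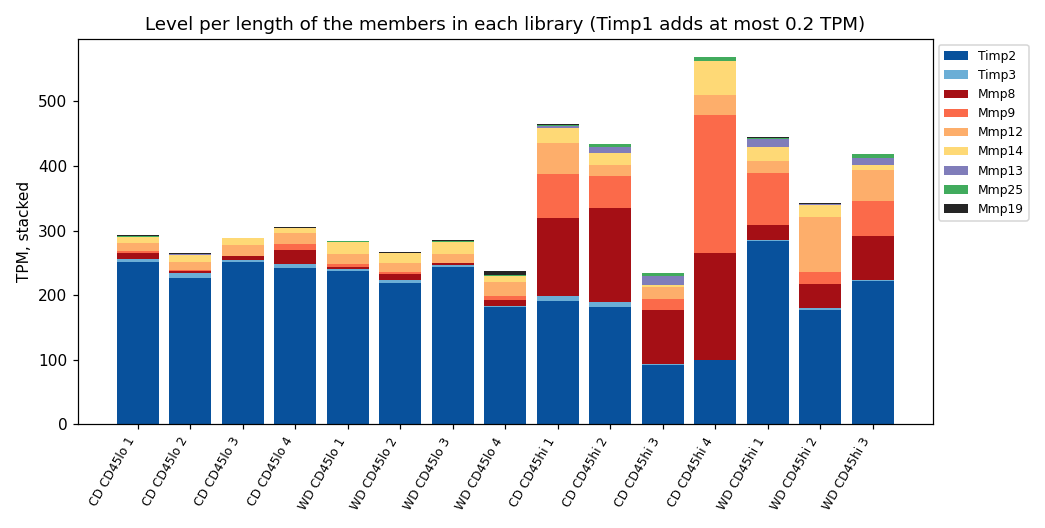
Stacked TPM of the members in each of the 15 libraries, with TIMPs in blue and MMPs in other colours. *Timp2* fills most of the CD45lo bars, while *Mmp8* and *Mmp9* add most of the MMP level in CD CD45hi libraries. The tallest bar is CD CD45hi replicate 4, with *Mmp9* at 213 and *Mmp8* at 165 TPM.

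The diets were compared within each cell type, against no change. In CD45hi cells 0 of 9 members were called, where 0.254% of all tested genes were (38 genes), and 17.6% of all genes were at an unadjusted p under 0.05. The member with the lowest p was *Mmp8*, at 75.4 ± 37.7 cpm (SD, n = 3) in WD and 215 ± 67.3 cpm (n = 4) in CD CD45hi libraries. All 3 WD libraries lay below all 4 CD libraries, as did those of 3.19% of all tested genes, with 2.58% the other way. The log2 fold change was −1.51 with an SE of 0.56 (FDR = 0.180, unadjusted p = 0.0151 from edgeR's quasi-likelihood test). The edgeR 4 form of the test called it (FDR = 0.0443), DESeq2 did not (FDR = 0.0582), and without both libraries that stood apart the value was −1.03 (FDR = 0.385). For the other 8 tested members the diets overlapped in CD45hi cells, with log2 values from −0.98 (*Timp3*, SE 0.75) to 0.43 (*Mmp12*, SE 0.29) and FDR from 0.434 to 0.935. For *Mmp9* the value was −0.81 (SE 0.80), for *Mmp13* 0.38 (SE 1.33), for *Mmp14* −0.57 (SE 0.64) and for *Timp2* 0.29 (SE 0.18).

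In CD45lo cells no member was called between diets, and 0% of all tested genes were (0.822% at an unadjusted p under 0.05). The diets overlapped for all 9 tested members, where 1.13% of all genes were higher and 1.29% lower in every WD library, and the log2 values of *Mmp12*, *Mmp14* and *Timp2* were 0.17 (SE 0.27), 0.64 (SE 0.59) and −0.05 (SE 0.17). The interaction, which asks whether the difference between cell types depends on diet, gave 0 calls among the members and 1 among all tested genes (0.00668%, and 10.1% at an unadjusted p under 0.05). Its log2 values were −0.78 (SE 0.74) for *Mmp8*, −0.70 (SE 1.11) for *Mmp9* and −1.21 (SE 0.87) for *Mmp14*, and the members' FDR lay between 0.692 and 0.975. A single member, *Mmp8*, was at an unadjusted p under 0.05 in any of these 3 comparisons. The comparisons share libraries with those of the cell types and are not independent of them.

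Markers of other cell types moved with the cell type comparison. The 12 neutrophil markers summed to 3607, 4141, 1615 and 3897 cpm in CD CD45hi, 1657, 1406 and 2509 cpm in WD CD45hi, 647 to 1468 cpm in CD CD45lo and 751 to 982 cpm in WD CD45lo libraries. A large part of the CD45lo sums was 1 gene, *Csf3r*, at 465 to 622 cpm in CD CD45lo and 555 to 744 cpm in WD CD45lo libraries. In CD45hi libraries *Csf3r* was at 609 to 885 cpm on the CD and 593 to 711 cpm on the WD. *Ngp* added 44.8 to 427 cpm in CD CD45lo and 35.4 to 117 cpm in WD CD45lo libraries. Of the 12, 5 were called higher in CD45hi cells on each diet, the alarmins *S100a8* and *S100a9*, the chemokine receptor *Cxcr2*, *Retnlg* and *Stfa2l1*. Beside them, 4.01% of all tested genes were called higher in WD-fed and 3.39% in CD-fed mice. The other 7, *Csf3r*, the surface marker *Ly6g* and the granule genes *Ngp*, *Ltf*, *Camp*, *Mpo* and *Elane*, were called on neither. *Ly6g* was low in all libraries, at 0 to 7.34 cpm. It was at 0 cpm in CD CD45hi replicate 3 and WD CD45hi replicates 1 and 2, which held 136, 42.8 and 66.8 cpm of *Mmp8* and 36.5, 84.9 and 22.2 cpm of *Mmp9*. The 5 called markers were present in these libraries, with *S100a9* at 420, 351 and 252 cpm and *Stfa2l1* at 10.1, 27.6 and 50.1 cpm. Of the granule genes, *Elane* was at 0 cpm and *Mpo* at 0 to 0.0941 cpm in them. The other granule genes were present, with *Ngp* at 55.2, 122 and 43.1 cpm, *Ltf* at 13.5, 16.0 and 18.4 cpm and *Camp* at 6.95, 9.59 and 2.48 cpm. Between diets in CD45hi cells 0 of the 12 were called, with a median log2 fold change of −0.98. The part of neutrophil content in the *Mmp8*, *Mmp9* and *Mmp25* values was not tested.

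**Figure D5:**
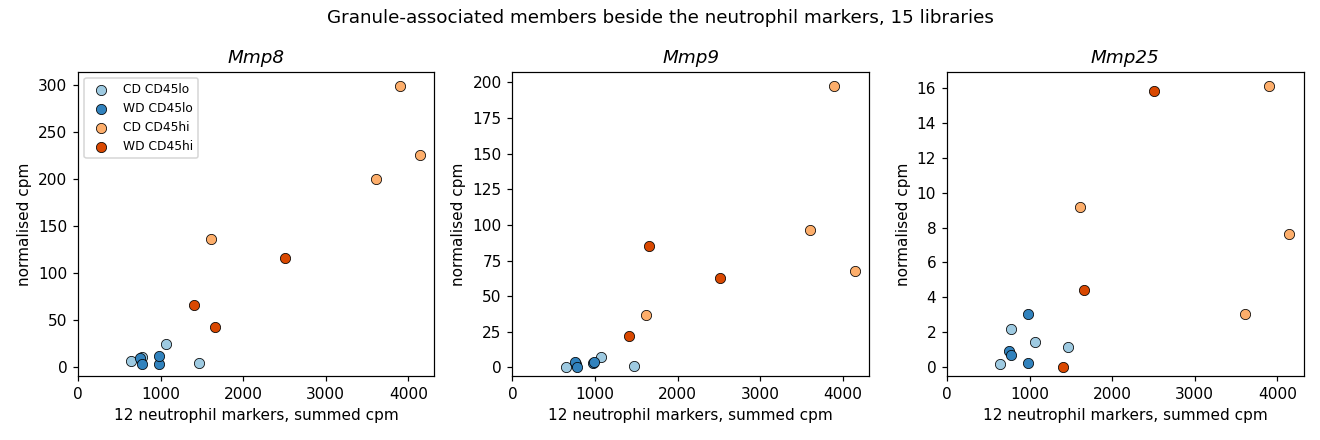
*Mmp8*, *Mmp9* and *Mmp25* (normalised cpm) beside the summed cpm of 12 neutrophil markers in the 15 libraries, coloured by group. The sum includes *Csf3r*, which was at 465 to 885 cpm in the 15 libraries. The 3 CD CD45hi libraries with the most marker RNA, 3607 to 4141 cpm, held the most *Mmp8*, and CD CD45hi replicate 3 lay near the WD CD45hi libraries on both axes.

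Other lists moved too, and the same shares of all tested genes, 4.01% higher in WD-fed and 3.39% in CD-fed mice, apply to them. The shares called lower were 1.17% and 0.588%. All 7 markers of border-associated macrophages were called higher in CD45hi cells on each diet, with sums of 784 to 2751 cpm against 67.6 to 247 cpm in CD45lo cells. Of 8 monocyte markers, 5 were called higher in WD-fed and 6 in CD-fed mice, with sums of 469 to 1052 against 29.5 to 131 cpm. The 5 lymphocyte markers summed to 9.59 to 95.6 cpm in CD45hi and 0 to 0.104 cpm in CD45lo libraries. Dendritic cell markers (5 genes) summed to 116 to 289 against 18.3 to 35.7 cpm, with 1 called higher on each diet. Which of these cells carried *Mmp12*, *Mmp13* and *Mmp14* was not tested. Markers of fibroblasts and mural cells (8 genes, 6 tested) were low in all libraries, at 9.44 to 44.3 cpm in sum, and 0 were called, while *Col1a1* had at most 3 counts in every CD45hi library. Neuronal markers summed to 0.134 to 27.7 cpm, with 0 of 4 called. Endothelial markers (5 genes) summed to 29.9 to 92.1 cpm, with 1 called higher on each diet. Of 4 astrocyte markers 2 were called lower in CD-fed and 0 in WD-fed mice, at 37.1 to 160 cpm in sum, and of 4 oligodendrocyte markers 0 and 1 higher, at 60.8 to 224 cpm.

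Among 38 further genes of the pathway, 26 were tested. In WD-fed mice 3 were called higher in CD45hi cells and 0 lower, with a median log2 fold change of 0.35, and in CD-fed mice 4 were higher and 1 lower, with a median of 0.18. Of all tested genes, 4.01% were higher and 1.17% lower in WD-fed mice, and 3.39% and 0.588% in CD-fed mice. *Plaur*, the receptor that localises the plasmin activator urokinase, was higher by 2.59 (SE 0.45, FDR = 0.00355) in CD-fed and by 2.97 (SE 0.47, FDR = 0.00142) in WD-fed mice on the log2 scale. *Cd44*, the hyaluronan receptor that can hold MMP9 and MMP14 at the cell surface, was at 168 to 401 cpm in CD45hi and 5.61 to 19.6 cpm in CD45lo libraries, a log2 difference of 4.47 (SE 0.43, FDR = 6.05e-06) in CD-fed and 4.97 (SE 0.45, FDR = 3.26e-06) in WD-fed mice. The membrane protease gene *Adam19* was higher by 4.54 (SE 0.64, FDR = 0.000311) and 5.03 (SE 0.67, FDR = 0.000174). *Adam8*, another membrane protease, was higher in CD-fed mice (4.07, SE 0.73, FDR = 0.00296), while the WD value was 2.49 (SE 0.71, FDR = 0.0736).

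The gene called lower was *Mmp11*, a stromelysin, at 2.35 to 4.00 cpm in CD CD45lo libraries, with at most 1 count in any CD CD45hi library. By group mean, it was at least 15.3-fold lower in CD45hi cells when 3 counts per library are used for them. The fit against 1.5-fold, which did not test this bound, called *Mmp11* (FDR = 0.0498). In WD-fed mice it was at 0, 0 and 2.68 cpm in CD45hi and 0.455 to 5.27 cpm in CD45lo libraries, and did not pass (log2 fold change −1.93, SE 1.47, FDR = 0.607). *Mmp2*, gelatinase A, had 113 to 678 counts in all 15 libraries, and was called in no comparison. *Lcn2*, the lipocalin that binds MMP9, was at 62.9 to 360.3 cpm in CD CD45hi and 16.1 to 129.8 cpm in WD CD45hi libraries, and the diets overlapped. Of the other 16 *Mmp* genes 7 were at 0 in every library, *Mmp1a*, *Mmp1b*, *Mmp3*, *Mmp7*, *Mmp10*, *Mmp17* and *Mmp20*. Between diets and in the interaction 0 of the 26 genes were called.

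Likeness was measured as the root mean square difference of centred log2 cpm over the 15 libraries, where 0 would be the same pattern. For *Mmp8* the nearest genes were *S100a11* (0.70), *Mrc1* (0.73) and *Gp49a* (0.76), beside an SD of *Mmp8* itself of 2.3. *Mmp9* was nearest to *Retnlg* (0.73), *Gda* (0.77) and *Clec4e* (0.79), with an SD of 2.87. *Mmp12*, with an SD of 0.62, was nearest to *Stat2* (0.22), *Rpl28-ps1* (0.26) and *Rps26* (0.27). *Mmp13*, with an SD of 3.27, was nearest to *Klrb1c* (1.21), *Dnah12* (1.37) and *F2rl2* (1.49). For *Mmp14*, with an SD of 1.02, the nearest were *Ulk1* (0.52), *Ly6a* (0.55) and *Pbx3* (0.57). *Mmp19* (SD 1.31) was nearest to *2610020C07Rik* (0.77), *Slc4a2* (0.80) and *Gm11187* (0.83), and *Mmp25* (SD 2.06) to *Fam213a* (0.93), *Flrt2* (1.00) and *Gm12854* (1.04). Among the genes nearest to *Timp2* (SD 0.24) were *9930021J03Rik* and *Atp5b* (both 0.16), and *Timp3* (SD 1.06) was nearest to *Ddx50* (0.51), *Cep250* (0.53) and *Gcc2* (0.56). These points share their libraries and depth, so no p is given.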

How the data were processed

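RNA-seq was made by the study's authors from poly(A)-selected RNA of sorted brain myeloid cells, with 75 bp paired-end reads. The authors trimmed reads, removed bases under Phred 30, and quantified genes with RSEM 1.2.12 and Bowtie2 on mm10. They deposited for each library an expected count, an estimated count that is not normalised and need not be whole, with TPM and FPKM values, both scaled for gene length. RSEM divides reads shared by several genes, which makes counts of overlapping genes uncertain. The annotation release and the use of strand are not given in the sources used here, nor which library ran on which of the named sequencers, so a batch by sequencer was not tested.

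Groups came from the labels. Expected counts were rounded, a gene was kept where 2 or more libraries reached 1 cpm, and TMM normalisation and edgeR 4.0.16 (R 4.3.3, the earlier quasi-likelihood form) were applied to all 15 libraries with 4 groups. Cell types were compared within diets by glmTreat at 1.5-fold, and diets and their interaction with cell type by glmQLFTest, with FDR (Benjamini-Hochberg) over all 14967 genes. The SE is the log2 fold change divided by the square root of F. Values in cpm are TMM-normalised. Replicates of one group differed beyond sampling noise in all 21 pairs (chi-square per degree of freedom 20.6 to 135). The computation was tested on simulated data.

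The alternatives were a test against no change with a later limit, DESeq2 1.42.0, its size factors, other filters, fits without the groups not compared, the edgeR 4 form, replicate blocks, FPKM, another prior count, and leaving out each library. Leaving out both CD45hi libraries that stood apart was added after seeing the data. Named genes were the members, pathway genes that passed in any comparison, the 3 tested genes most like each member, *Syn1* and *Syn3*, with *Mmp2*, *Lcn2*, the genes overlapping or neighbouring the members and marker genes named beside them. The members and lists were chosen with earlier results of these data known. Promoter windows are from RefSeq, and coordinates from GENCODE M21. Levels of *Chil3*, a listed monocyte marker, and promoters of *Mmp9* and *Mmp19* were not analysed here, and 1 gene near *Timp2* in pattern is not reported here.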

Additional observations from a re-analysis of the deposited data

Results flagged for a closer look

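*Mmp13* in CD CD45lo cells had 1 library apart from the rest. Replicate 2 held 0.571 cpm (11 counts) and the other 3 libraries 0. With 3 of 4 values at 0, Dixon's criterion sets apart any value above 0, so it says nothing more of this library than its count. The criterion set apart none of the other combinations of gene and group among the 26 examined. *Mmp13* was at or under 1 count in all WD CD45lo libraries.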

How the results depend on the processing

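Between cell types the calls of *Mmp8* and *Mmp9* held in every alternative run on both diets, and that of *Mmp13* in WD-fed mice. The number of members called in WD-fed mice was 3, and 3 to 4 with 1 library left out. It was also 4 with DESeq2, with the test against no change and a later limit, and without both libraries that stood apart, each time with *Mmp12* added. In CD-fed mice it was 3, 2 to 3 with 1 library left out, 2 with the compared groups alone, 4 with the later limit, which added *Mmp12*, and 5 with DESeq2, which added *Mmp12* and *Mmp14*. *Mmp13* in CD-fed mice also lost its call in the edgeR 4 form (FDR = 0.0721). Between diets in CD45hi cells the number was 0, and 1 in the edgeR 4 form, where *Mmp8* passed. It was 0 in CD45lo cells and in the interaction in every alternative.

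No value with a call changed sign. The cause of the sign changes of other values was not tested. Leaving out 1 library gave log2 values for the diets in CD45hi cells of −0.13 to 1.05 for *Mmp13*, −0.94 to 0.24 for *Mmp14*, −0.14 to 1.66 for *Mmp19* and −2.03 to 0.17 for *Mmp25*. In CD45lo cells they were −0.47 to 0.94 for *Mmp9*, −4.22 to 1.58 for *Mmp13*, −0.29 to 1.27 for *Mmp19* and −0.94 to 0.40 for *Mmp25*, where the sign of *Mmp13* turned without CD CD45lo replicate 2. For the interaction they were −1.20 to 4.60 for *Mmp13*, −0.99 to 0.83 for *Mmp19*, −2.02 to 0.52 for *Mmp25* and −0.86 to 0.11 for *Timp3*. *Timp3* between cell types ranged from −0.77 to 0.080 in WD-fed and from −0.32 to 0.48 in CD-fed mice. Without both CD45hi libraries that stood apart, the signs turned for *Timp3* between cell types in WD-fed mice (0.080), for *Mmp13* (−0.54), *Mmp19* (−0.50) and *Mmp25* (0.26) between diets in CD45hi cells, and for *Mmp25* in the interaction (0.26).

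Libraries with the same replicate number did not deviate together, with correlations of −0.022 to 0.069 over 7 pairs by the titles and of 0 to 0.069 by a second set of numbers, so the block is given here alone. A replicate block by the titles left the number of members called at 3, 3, 0, 0 and 0 in the 5 comparisons, and turned the signs of *Timp3* between cell types in CD-fed mice (−0.25), of *Mmp9* between diets in CD45hi (0.022) and CD45lo cells (0.25), and of *Mmp25* in the interaction (0.30). A replicate block by the other numbers, which could be fitted for the cell types and the interaction, turned *Timp3* in CD-fed mice (−0.33) and *Mmp19* (0.34) and *Timp3* (0.082) in the interaction. FPKM in place of TPM gives the same MMP share by construction and tests nothing. A prior count of 0.5 kept 23 of the 27 genes most alike.

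Depth limits *Timp1*, *Mmp13* in CD45lo cells and *Mmp25* in WD CD45hi replicate 2, where counts were at or near 0, and the 3 WD CD45hi libraries limit the diet comparison.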
